A study of Mus musculus with 2 samples.

Results

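The genes described here are the cadherins and protocadherins of cultured mouse neural stem/progenitor cells (NSPCs). They were taken by name, as the rows of the count table whose gene symbol begins with *Pcdh*, with *Cdh* and a digit, or with *Celsr*, and numbered 47 of 15046 rows. The clustered protocadherins among them were 22 *Pcdhg* and 2 *Pcdhb* genes, with 0 *Pcdha* rows in the table used here. The others were 9 non-clustered protocadherins, 11 *Cdh* genes and 3 *Celsr* genes. The NSPCs came from the subventricular zone of male C57/Bl6 mice aged 6 to 8 weeks, were pooled from several mice, and were passaged at least 5 times as neurospheres before they grew attached to plastic. All cells belonged to 1 stable line that carried a retroviral PLIN2-GFP transgene, a fusion of green fluorescent protein (GFP) to perilipin 2, a lipid droplet coat protein, expressed from the ubiquitous CAG promoter in the presence of EGF and FGF-2 (20 ng/ml each) and of the endogenous *Plin2* gene. Proliferating cells with the lowest 25% and the highest 25% of the GFP signal were sorted as single cells into 384-well plates for SORT-seq, with no further treatment of either category, and are called low and high PLIN2-GFP NSPCs.

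Cadherins are calcium-dependent adhesion proteins that bind cadherins of neighbouring cells and connect to actin through catenins. The clustered protocadherins are encoded by tandem arrays in which each *Pcdhg* variable exon, with its own promoter, is spliced to the same constant exons, so that a cell can carry its own combination of isoforms on the surface, a basis of self-recognition in neurites. N-cadherin (*Cdh2*) is a known adhesion molecule of neural stem cells in their niche, and the CELSR proteins are atypical cadherins of planar cell polarity.

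The cells of each plate and category were summed, which gave 4 sums of 95 (plate 1, low), 72 (plate 2, low), 84 (plate 1, high) and 53 cells (plate 2, high), and of 778022 to 1029023 unique molecular identifiers (UMIs, 1 per captured molecule). The median number of UMIs per cell was 7856 and 11955 in the low sums of plates 1 and 2, and 11709 and 14729 in the high sums. No row of wells held both categories, so the category and the position on the plate cannot be told apart, and 59 well barcodes occurred on both plates because the barcode set was used on each. The plates carried 1 line and are not separate cultures by their labels. The plate was a block in the tests, which takes out differences between plates that both categories share. The p-values between categories measure no spread between cultures. With 1 residual degree of freedom, the spread behind them was largely shared over all genes. A small p-value can therefore stand beside a difference that varied from plate to plate in that gene. NSPC markers were detected, with *Fabp7* between 2968 and 3394 and *Vim* between 2481 and 3252 CPM (counts scaled to the library total), whereas 0 of 4 microglial markers had a row and the 3 endothelial and mural markers with a row summed to 1.82 to 7.29 CPM. *Olig1* and *Olig2*, transcription factors of the oligodendrocyte lineage, lay between 2172 and 2532 CPM and between 1032 and 1271 CPM.

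The 22 *Pcdhg* rows could not be read as 22 separate measurements. On chromosome 18 of GRCm38 (GENCODE M21), the genes lie on the plus strand from the start of *Pcdhga1* at 37661793, and all 22 share 3 exons at chr18:37825021-37825079, chr18:37833265-37833353 and chr18:37839903-37841873, the last of which is 1971 bases long and holds the 3′ end of the transcripts. SORT-seq reads transcripts at this end. Of the 22 genes, 17 are annotated to end at 37841873 and the other 5 (*Pcdhga2*, *Pcdhgb1*, *Pcdhgb4*, *Pcdhga9* and *Pcdhgb8*) at 37841870, 3 bases earlier. Coordinates are given for this locus and no sequence is shown.

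Every cell had a *Pcdhg* count, with a median of 18.7 and a range of 1.00 to 76.9 UMIs. In 62.8% of the cells (exact binomial 95% interval 57.1% to 68.3%) this count was divided in equal parts (64, 49, 52 and 26 cells, in the order above) over all 22 rows, with a tolerance of 1% of the cell's *Pcdhg* count. In 21 further cells (6.91%) it was divided equally over the 17 genes with the later end, and the 5 genes with the earlier end received at most 1%. These 2 kinds of cell held 52.2% and 7.47% of all *Pcdhg* counts. In 80 cells (26.3%, interval 21.5% to 31.6%) more than 50% of the count stood in 1 gene, at a median of 100.0% of the cell's *Pcdhg* count, and the last 12 cells had other divisions. Only 9.07% of the *Pcdhg* values above 0 were whole numbers within 1e-06, against 90.9% for the other members. The rows of *Pcdhga1*, *Pcdhga5*, *Pcdhga6*, *Pcdhgb2*, *Pcdhgb5* and *Pcdhgb6* were identical in every cell, as were those of *Pcdhgb1* and *Pcdhga9*.

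The gene that took more than 50% was 1 of 10. It was *Pcdhga12* in 25 cells, *Pcdhgc3* in 23, *Pcdhgc5* in 14, *Pcdhgc4* in 5, *Pcdhga11* in 4, *Pcdhga2* in 3, *Pcdhga3* and *Pcdhgb4* in 2 each, and *Pcdhgb8* and *Pcdhga4* in 1 each. Such cells gave 75.9% of the *Pcdhgc3* count, 66.2% of the *Pcdhga12* count and 50.1% of the *Pcdhgc5* count. A single cell, in the high sum of plate 2, had a *Pcdhgc3* value of 76.7, which was 27.5% of the *Pcdhgc3* count of its sum, and with 34630 UMIs it was the deepest of all cells.

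Cells with 1 leading gene made up 23.2% and 18.1% of the low sums of plates 1 and 2 (22 of 95 and 13 of 72 cells). They made up 31% and 35.8% of the high sums (26 of 84 and 19 of 53 cells). The exact intervals of all 4 shares, which cover counting error only, overlapped at 23.14% to 28.9%. The median depth was 13717 UMIs in these 80 cells. It was 8600 UMIs in the cells divided evenly over 22 rows and 11682 UMIs in the 21 cells divided evenly over 17. In the order of the sums above, the medians were 11033, 12779, 15338 and 16280 UMIs in cells with 1 leading gene. They were 7002, 11607, 8498 and 11626 UMIs in cells divided evenly over 22 rows. The high sum of plate 2 had the highest share and the highest median depth. The low sum of plate 2 had the lowest share and a median depth above that of both plate 1 sums. The part of depth in the share was not tested further.

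**Figure D1:**
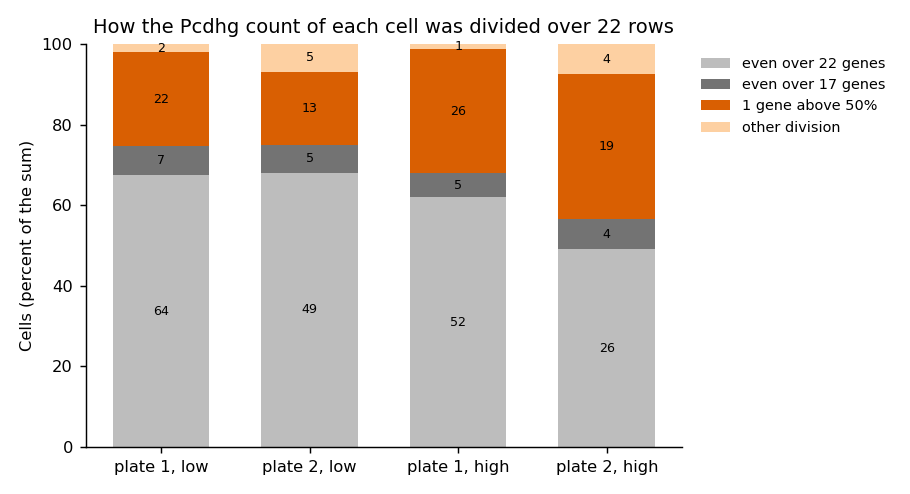
Bars show the percentage of cells in each sum (plate and PLIN2-GFP category) by the way the cell's *Pcdhg* count was divided over the 22 *Pcdhg* rows, with the number of cells printed in each segment. An even division over 22 genes was the most frequent in every sum, from 49.1% to 68.1% of cells.

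As a summed row, *Pcdhg* ranked 50th among 15025 features by mean level. On plates 1 and 2 it lay at 1881 and 1913 CPM in the low sums and at 1725 and 1829 CPM in the high sums, on the CPM scale after TMM scaling (trimmed mean of M-values, which corrects for differences in library composition). Both high sums were below both low sums, with means of 1897 ± 23 CPM (SD, n = 2) and 1777 ± 73.5 CPM (SD, n = 2). Such a lack of overlap between the categories was found in 31.9% of the 8348 genes tested. The fold change, fitted over all genes with edgeR's quasi-likelihood test and the plate as a block, was -0.09 on the log2 scale (SE 0.07), which did not pass (Benjamini-Hochberg adjusted p = 0.708). Per cell, the median *Pcdhg* level was 1742 CPM, with the 10th and 90th percentiles at 1111 and 2618 CPM. Cell medians of the 4 sums were also close to each other, from 1691 to 1812 CPM. When cells under 10% mitochondrial counts were used alone (only 4, 6, 10 and 13 cells, in the order above), or cells in S or G2M, the sign of the summed fold change turned to 0.25 and 0.01, with no call.

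Of the 22 *Pcdhg* rows taken one by one, 5 were called at an adjusted p under 0.1, 2 of them higher in the high sums and 3 lower. They were the whole of the calls among the 39 members tested (those with counts above edgeR's minimum), while 2.14% of all 8348 genes tested were called, 0.886% higher and 1.26% lower. *Pcdhgc3* encodes an isoform of the C type. Its level was 294.3 and 132.2 CPM in the low sums and 324 and 359.5 CPM in the high sums. The plate 2 low sum stood apart, and the categories did not overlap, as in 31.9% of all genes tested. The fold change was 0.70 on the log2 scale (SE 0.13, adjusted p = 2.33e-05), but the plates gave 0.14 and 1.44. It was 0.52 with an adjusted p of 0.0719 without the cell with 76.7 counts, and -0.02 with an adjusted p of 0.992 in cells in G1. In cells in S or G2M it was 1.63, with an adjusted p of 2.43e-17. The plates went opposite ways in G1, with 451.3 and 285.6 CPM in the low sums and 586.2 and 142.7 CPM in the high sums. They did so in S too, with 280.95 and 69.2 CPM in the low sums and 235.2 and 709 CPM in the high sums. In G2M both plates rose, from 79.8 and 65.6 CPM to 218.3 and 185.6 CPM.

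*Pcdhgc5*, another C-type isoform, had 145.6 and 132.2 CPM in the low sums and 172.8 and 254.6 CPM in the high sums. These did not overlap, as in 31.9% of all genes tested. *Pcdhgc5* rose by 0.60 on the log2 scale (SE 0.15, adjusted p = 0.00770). The third C-type gene, *Pcdhgc4*, went the other way, with 119.2 and 108.9 CPM in the low sums and 103.996 and 44.9 CPM in the high sums. Its log2 fold change was -0.61 (SE 0.19, adjusted p = 0.0659), and most of the difference lay on plate 2 (-1.28, against -0.20 on plate 1). *Pcdhga12*, an A-type isoform, had 245.4 and 365 CPM in the low sums and 136.2 and 275.3 CPM in the high sums, with overlap between the categories. It fell by 0.60 (SE 0.13, adjusted p = 9.94e-04) and was lower in the high sum on both plates. *Pcdhga10* had 71.2 and 82.2 CPM in the low sums and 48.3 and 39 CPM in the high sums. Its log2 fold change was -0.80 (SE 0.24, adjusted p = 0.0484), although no cell had *Pcdhga10* as its leading gene. Its levels in the high sums were those of *Pcdhga1*, 1 of the 6 rows identical in every cell. *Pcdhga1* had 57.2 and 64.9 CPM in the low sums and a log2 fold change of -0.48 (adjusted p = 0.479). Part of the *Pcdhga10* fall was thus shared with rows that hold divided counts.

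The calls were made on single rows and not on the family as a whole. When the *Pcdhg* rows were summed before the fit, 0 members were called, while 2.09% of the 8327 features were, and 1 member passed at an unadjusted p under 0.05. None of the 5 calls was kept without the plate block, with DESeq2 or in cells thinned to 5000 UMIs, and each was lost when at least 1 of the 4 sums was left out. In whole UMIs only, with each cell's value rounded down, the summed *Pcdhg* row was higher in the high sums, by 0.29 (adjusted p = 0.0217), a step that removes the fractional values of evenly divided counts. Of the 4 astrocyte markers tested, 2 were called higher, *Slc1a3* and *Aldoc*, by 0.24 and 0.38 on the log2 scale (adjusted p = 0.0857 and 0.00770). *Slc1a2* and *S100b* were not called, at 0.11 and 0.53 (adjusted p = 0.928 and 0.789), and *Gfap* was at 0 to 0.972 CPM. Of the 5 NSPC markers tested, 1 was called, *Vim*, which was lower (log2 fold change -0.22, adjusted p = 0.0399). The summed level of the 6 astrocyte markers was 1817 to 2058 CPM in the low sums and 2319 to 2371 CPM in the high sums, and its part in the *Pcdhg* values was not tested.

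**Figure D2:**
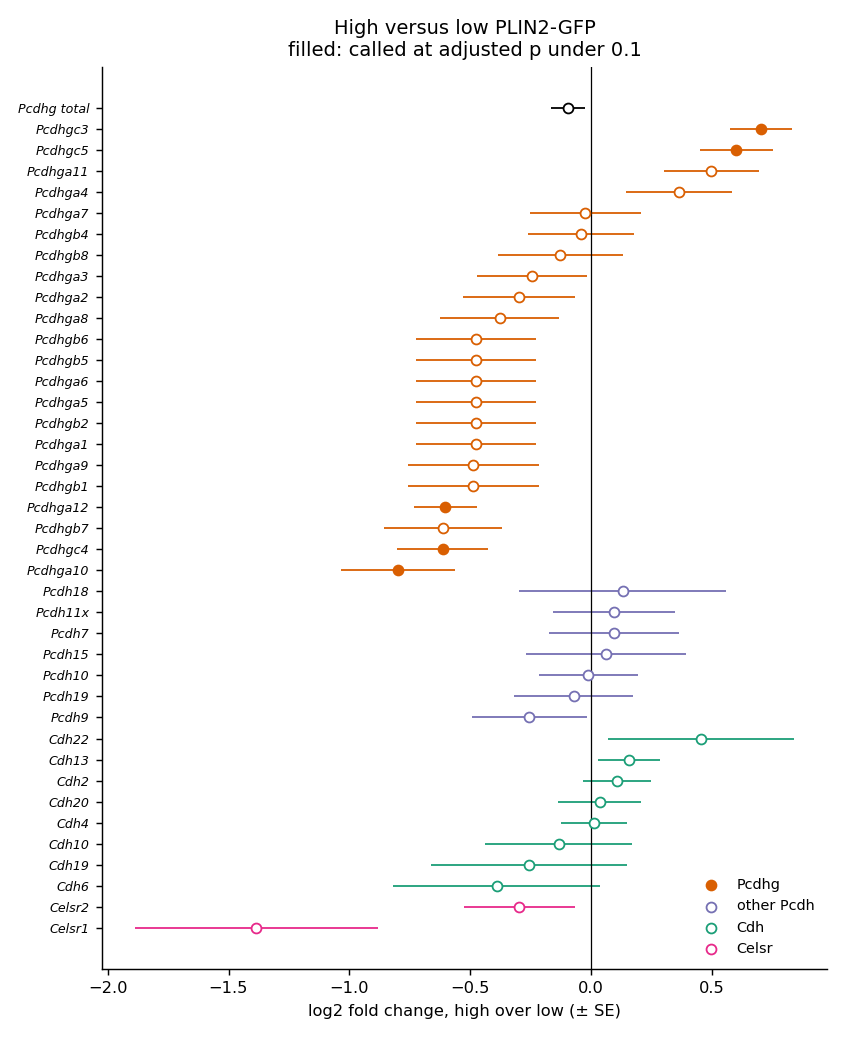
Points show the log2 fold change of each tested member, high over low PLIN2-GFP NSPCs, with the summed *Pcdhg* row at the top. Bars give a standard error computed from the statistic of edgeR's test, and filled points passed an adjusted p of 0.1. The filled points were 5 *Pcdhg* rows on both sides of 0, from -0.80 to 0.70, while the summed row stood at -0.09 and the 17 other members were open.

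Outside the *Pcdhg* cluster, the 4 members with the highest mean levels were *Cdh13*, *Cdh4*, *Cdh2* and *Cdh20*. CPM counts 3′ ends, 1 per molecule, so levels were not divided by transcript length. *Cdh13* encodes T-cadherin, which is held in the membrane by a lipid anchor, and lies at chr8:118283733-119324921. It had 272.99 and 224.002 CPM in the low sums and 299.8 and 255.04 CPM in the high sums, and at least 1 UMI in 82.6% of the cells. *Cdh4* (R-cadherin, chr2:179442431-179899373) followed with 214.4 and 218.6 CPM in the low sums and 248.9 and 187.8 CPM in the high sums. N-cadherin (*Cdh2*, chr18:16588877-16809246) had 171.7 and 208.9 CPM in the low sums and 208.1 and 199.4 CPM in the high sums. Every *Cdh13* sum was above every *Cdh2* sum, while the range of *Cdh4* overlapped with both. *Cdh20*, a type II cadherin, was below all of them at 109.2 to 121.5 CPM. The other 7 *Cdh* genes were at 47.1 CPM or less in every sum.

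Among the non-clustered protocadherins, the levels of *Pcdh10* were the highest on average, with 82.4 and 72.9 CPM in the low sums and 87.5 and 67.3 CPM in the high sums. *Pcdh9* had 64.5 and 60.9 CPM in the low sums and 53.8 and 51.5 CPM in the high sums. The X-linked *Pcdh19* had 48.9 and 63.3 CPM in the low sums and 50.6 and 55.1 CPM in the high sums. *Pcdh11x*, also X-linked, was at 43.6 to 57.6 CPM and *Pcdh7* at 37 to 48.9 CPM. Every *Pcdh10* sum was above every sum of the other non-clustered protocadherins. *Pcdh9*, *Pcdh19* and *Pcdh11x* overlapped each other in level, and *Pcdh7* overlapped with *Pcdh19* and *Pcdh11x* but not with *Pcdh9*. *Pcdh15*, *Pcdh18*, *Pcdh1* and *Pcdh17* were lower, at 31.1 CPM or less. The *Celsr* family was led by *Celsr2*, with 63.1 and 73.5 CPM in the low sums and 51.5 and 59.2 CPM in the high sums, whereas *Celsr3* was at 1.21 to 5.83 CPM. *Pcdhb4* and *Pcdhb14* were at or near 0, with 0.75 counts each over all cells, in parts of a UMI, and 0 cells had a whole UMI of either gene.

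Outside the *Pcdhg* cluster, *Pcdh19*, *Cdh13* and *Pcdh11x* were called between phases of the cell cycle. The promoter of *Pcdh19* is shown because no promoter sequence of the other genes was at hand, and not for the strength of its call. It runs from 250 bases before to 50 bases after the transcription start, lies at chrX:133688944-133689243 on the minus strand (RefSeq, GRCm38.p6), and is written 5′ to 3′ on the strand of the gene, with capitals for a CCAAT box read on the opposite strand as ATTGG.
Pcdh19: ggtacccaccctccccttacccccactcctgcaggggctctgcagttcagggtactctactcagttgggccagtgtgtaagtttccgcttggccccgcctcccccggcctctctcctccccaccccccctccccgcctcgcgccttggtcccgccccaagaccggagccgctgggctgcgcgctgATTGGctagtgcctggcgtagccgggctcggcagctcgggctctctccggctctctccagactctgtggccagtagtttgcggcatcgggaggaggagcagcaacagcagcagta
The window had 67.7% G and C and 18 CpG dinucleotides, against medians of 52.7% and 7 over 32851 promoters of this length. Searched on both strands, CCAAT was found 1 time and 37.4% of all promoters held it. The letters TTTGAA, the core of the element called the cell cycle genes homology region, were found 0 times in this window and in 17.9% of all promoters.

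**Figure D3:**
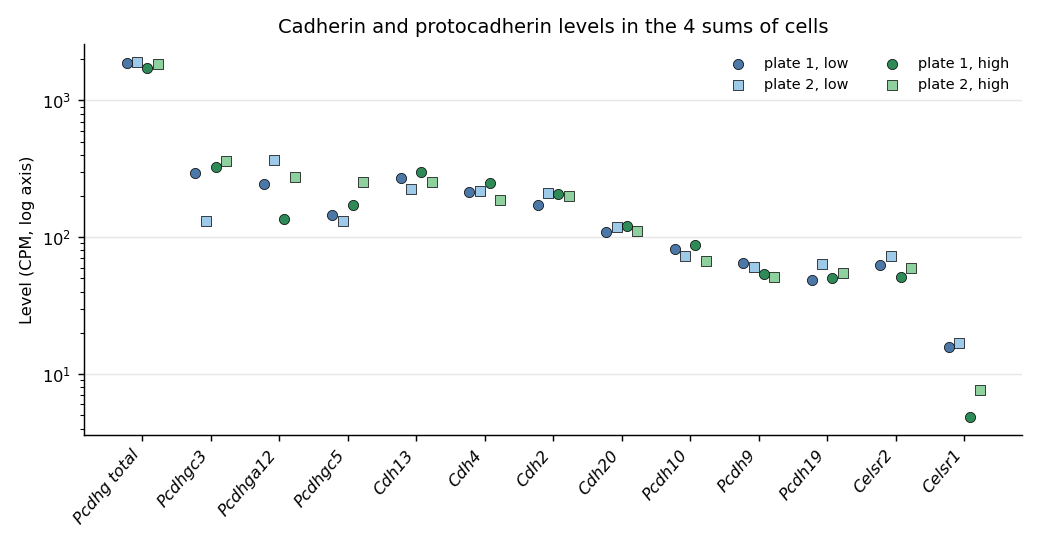
Points show the level (CPM, log axis) of the summed *Pcdhg* row and of 12 named members in the 4 sums, by plate and PLIN2-GFP category. The summed *Pcdhg* row, at 1725 to 1913 CPM, was above every single member, and *Celsr1* was the member at the lowest level shown, at 4.86 to 17 CPM.

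Of the 25 members outside the *Pcdhg* cluster, 17 passed the filter and 0 were called between high and low PLIN2-GFP NSPCs with edgeR, and 0 with DESeq2. Only *Celsr1* had an unadjusted p under 0.05. It had 15.8 and 17 CPM in the low sums and 4.86 and 7.72 CPM in the high sums, from 12 and 14 counts and from 5 and 6 counts, and a log2 fold change of -1.38 (SE 0.50, adjusted p = 0.184). At least 1 UMI of *Celsr1* was found in 9.87% of the cells. The median log2 fold change of the 17 genes was 0.01, against 0.00 for all genes, and the range was -1.38 to 0.46. The 3 genes whose categories did not overlap were *Celsr1*, *Celsr2* and *Pcdh9*, at a background of 31.9% of all genes tested.

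The summed level of the *Cdh* genes was 869 ± 36.1 CPM in the low sums and 907 ± 92.7 CPM in the high sums (SD, n = 2). That of the non-clustered protocadherins was 342 ± 0.155 and 334 ± 18.1 CPM (SD, n = 2), and that of the *Celsr* genes 85.96 ± 8.08 and 65.2 ± 4.2 CPM (SD, n = 2). *Cdh13* gave 0.16 (SE 0.13, adjusted p = 0.739), *Cdh2* 0.11 (SE 0.14, adjusted p = 0.869) and *Cdh4* 0.01 (SE 0.14, adjusted p = 0.987). The shares of cells with at least 1 UMI of *Cdh2* were 60% and 83.3% in the low sums and 78.6% and 83% in the high sums, but 59.7% and 60.9%, and 60.3% and 54%, once cells were thinned to 5000 UMIs (45 cells with fewer were left out). A cell carried at least 1 UMI of a median of 5 to 7 members outside the cluster, and of 4 in every sum after thinning.

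The members were then compared between the cell cycle phases that the authors assigned to the cells. The cells were summed again by plate, category and phase (12 sums, 4 per phase, with 49, 31, 32 and 20 cells in G1, 21, 18, 20 and 18 in S and 25, 23, 32 and 15 in G2M, in the order above) and fitted with plate, category and phase. The summed *Pcdhg* row lay at 2342, 2294, 2008 and 2228 CPM in G1 (low of plates 1 and 2, then high). It was at 1847, 1897, 1809 and 2031 CPM in S and at 1534, 1854, 1719 and 1557 CPM in G2M. Every G2M sum was below every G1 sum, and the fall from G1 was found in 4 of 4 pairs of the same plate and category. *Pcdhg* fell by 0.41 on the log2 scale in G2M (SE 0.07, adjusted p = 3.27e-05), with 11.4% of the 5349 features tested called lower. In S it fell by 0.23 (SE 0.07, adjusted p = 0.0325, 7.85% called lower), and this call was lost without the block, without TMM factors, in thinned cells and without either plate. Per cell, the mean *Pcdhg* count was 19.4 UMIs in G1, 24.3 in S and 18.7 in G2M, and the median depth was 9049, 13560 and 11333 UMIs, so S was above G1 in counts per cell and below it in CPM. Fewer molecules per cell and more RNA of other genes cannot be told apart on the CPM scale. Genes on the astrocyte and oligodendrocyte lineage lists moved with the *Pcdhg* row. The 3 astrocyte markers tested (*Slc1a2*, *Slc1a3* and *Aldoc*) and 2 of 3 oligodendrocyte lineage markers (*Olig1* and *Olig2*) were called lower in S and in G2M. In G2M, *Aldoc* fell by 0.62 on the log2 scale (adjusted p = 1.78e-05) and *Olig1* by 0.81 (adjusted p = 8.74e-12). The 6 astrocyte markers summed to 2655 to 2981 CPM in G1, 1477 to 2578 CPM in S and 1459 to 2266 CPM in G2M. The oligodendrocyte lineage markers, with no row for *Pdgfra*, *Mbp* and *Mog*, summed to 4334 to 5030 CPM in G1, 3291 to 4406 CPM in S and 2691 to 2971 CPM in G2M. The 5 NSPC markers summed to 7178 to 7675 CPM in G1, 6303 to 6989 CPM in S and 6131 to 6717 CPM in G2M. Of the 4 NSPC markers tested, *Fabp7* was called lower and *Nes* higher in S, and *Vim* was called lower in G2M. The part of all these markers in the *Pcdhg* values was not tested.

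Of the 33 members tested in this fit, 2 were called higher and 2 lower in S, where 17.6% of all 5370 genes were called (9.83% higher and 7.78% lower). In G2M, 2 were called higher and 4 lower, where 22.8% of all genes were called (11.5% higher and 11.3% lower). Among single *Pcdhg* rows, *Pcdhga12* was lower in both, at 375 ± 119.1 CPM in G1, 240.1 ± 99.95 in S and 182.4 ± 111.3 in G2M (SD, n = 4). It fell by 0.69 in S (SE 0.16, adjusted p = 0.00212) and by 1.06 in G2M (SE 0.17, adjusted p = 3.35e-06), and was lower than in G1 in 4 of 4 pairs in each phase. The call in S was lost without the block and in thinned cells. *Pcdhgc3* fell by 1.48 in G2M (SE 0.31, adjusted p = 3.03e-04), from 366 ± 193.3 to 137.3 ± 76 CPM (SD, n = 4), in 3 of 4 pairs. The exception was the high sum of plate 2, at 142.7 CPM in G1, 709 in S and 185.6 in G2M, the sum that held the cell with 76.7 counts, and the call was lost without plate 1 (-1.01, adjusted p = 0.359). *Pcdhgc5* fell by 0.88 in G2M (SE 0.24, adjusted p = 0.0057), in 3 of 4 pairs. Without plate 2 its fold change was -0.30 and not called (adjusted p = 0.526), and without plate 1 it was -1.47. *Pcdhga11* was called higher in S (0.80, SE 0.31, adjusted p = 0.0775) and in G2M (0.83, SE 0.30, adjusted p = 0.0455), with the sign lost without plate 1, where it was -0.25 and -0.11. *Pcdhgb8* was called lower in S (-0.85, SE 0.33, adjusted p = 0.0837), although it was lower in only 2 of 4 pairs, and the call was lost without either plate.

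Outside the cluster, 3 of the 11 members tested were called in S or G2M. *Cdh13* had 332, 349, 362 and 270.8 CPM in G1 (low of plates 1 and 2, then high) and 264.2, 194.3, 279.03 and 190.9 CPM in G2M. The G2M sums overlapped with the G1 sums only through the high sum of plate 2 in G1, and the fall was seen in 4 of 4 pairs. *Cdh13* fell by 0.51 in G2M (SE 0.15, adjusted p = 0.0139), a call lost in thinned cells and without either plate. *Pcdh19*, whose promoter is printed above, had 44.5, 46.7, 38.8 and 56.4 CPM in G1 and 67.5, 96.5, 77.9 and 41.3 CPM in G2M. It was higher in G2M in 3 of 4 pairs, the high sum of plate 2 being the exception, with a log2 fold change of 0.68 (SE 0.28, adjusted p = 0.0939) that was called in 1 of 5 alternatives. *Pcdh11x* rose in S by 0.85 (SE 0.33, adjusted p = 0.0837), from 35.7 ± 17 to 70.1 ± 25.6 CPM (SD, n = 4), and in 3 of 4 pairs. This call was lost without the block (adjusted p = 0.129) and without plate 2, where the fold change was 0.53 (adjusted p = 0.526), and it was 1.57 without plate 1. *Cdh2* was not called, at 211.3 ± 20.2 CPM in G1, 207.4 ± 49 in S and 204.02 ± 15 in G2M (SD, n = 4).

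**Figure D4:**
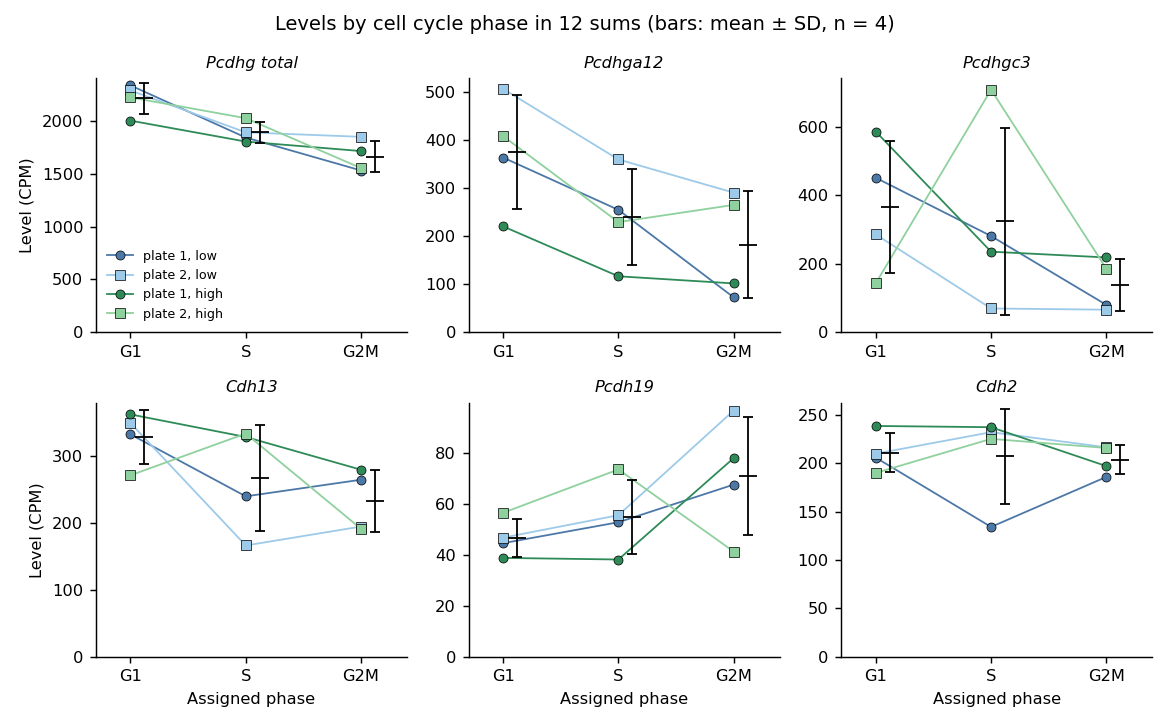
Lines join the levels (CPM, linear axes from 0) of the sums of 1 plate and category over the phases G1, S and G2M, for the summed *Pcdhg* row and 5 members, and black bars give the mean ± SD of the 4 sums. The *Pcdhg* sum and *Pcdhga12* were lower in G2M than in G1 on all 4 lines, while the high sum of plate 2 went against the other lines in *Pcdhgc3* and *Pcdh19*.

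The difference between high and low PLIN2-GFP NSPCs was also tested for a dependence on phase, a term that passed for 5 of 5370 genes (0.0931%). Among them was 1 member, *Pcdhgb4*. Its level was close in the 4 G1 sums, at 52.3 to 58.8 CPM. In S it was 38.3 and 55.1 CPM in the low sums and 80 and 141.8 CPM in the high sums, and in G2M 127.1 and 112.9 CPM in the low sums and 47.4 and 34.8 CPM in the high sums. The adjusted p was 0.0439, and 0.495 without the block. *Pcdhgb4* was the leading gene of 2 cells only. The same test gave an adjusted p of 0.350 for *Pcdhgc3*, of 0.172 for *Pcdhgc5* and of 0.986 for the summed *Pcdhg* row.

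In the 2 clusters of the authors' table, the values are given with no test, since the cells were clustered on their own expression. The summed *Pcdhg* row lay at 1789 and 1862 CPM in cluster 0 of plates 1 and 2 and at 1695 and 1809 CPM in cluster 1. The *Cdh* genes summed to 997 and 898 CPM in cluster 0 and to 826 and 744 CPM in cluster 1. *Cdh13* had 327 and 273.9 CPM in cluster 0 and 230.7 and 189.1 CPM in cluster 1. *Pcdh15* was at 40.7 and 26.3 CPM in cluster 0 and at 16.9 and 18.8 CPM in cluster 1, whereas *Cdh2*, with 200.7 and 191.8 against 173.3 and 210.4 CPM, overlapped.

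Genes that work with these proteins were examined in the same fits. Of 54 genes on 6 lists of catenins, proteases that cut cadherins, kinases and actin regulators, regulators of the clustered promoters, planar polarity partners and nectins, 43 were tested, 0 were higher and 1 was lower in the high sums, against 0.886% and 1.26% of all genes, so the lists did not stand apart from the background. The 1 gene was *Wasf1*, of the WAVE actin regulatory complex, with 31.6 and 21.9 CPM in the low sums and 13.6 and 6.43 CPM in the high sums (log2 fold change -1.39, SE 0.41, adjusted p = 0.0429). The median log2 fold change of the 43 genes was 0.01.

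Between phases, calls were made among the regulators of the clustered protocadherin promoters, a list that holds subunits of cohesin, the ring that also keeps sister chromatids together in dividing cells, besides *Ctcf*, *Smchd1* and others. Of the 11 tested, 5 were higher in S (*Rad21*, *Smc1a*, *Smc3*, *Stag2* and *Smchd1*) and 5 in G2M (*Ctcf*, *Rad21*, *Smc1a*, *Stag1* and *Smchd1*), with 0 lower in either, where 9.83% of all genes were higher in S and 11.5% in G2M. The phases were assigned from cell cycle genes measured in these same cells. For a listed gene used in that assignment, such as may be the case for *Ctcf*, a call is no test. Which listed genes were used was not examined. The increase of *Rad21*, the kleisin subunit of cohesin, was 0.52 in S (SE 0.14, adjusted p = 0.00822) and 1.54 in G2M (SE 0.13, adjusted p = 1.12e-13). Of the 6 genes tested on the list of catenins, which also holds vinculin (*Vcl*), 1 was lower in S and 2 in G2M. They were *Jup* (plakoglobin), by 0.99 and 0.69 on the log2 scale, and *Ctnnb1* (beta-catenin), by 0.21 in G2M (adjusted p = 0.0918). Of all genes, 7.78% were lower in S and 11.3% in G2M. *Fyn*, a kinase bound by protocadherins, fell by 0.43 in G2M (SE 0.11, adjusted p = 0.00307). *Dchs1*, a giant cadherin that binds FAT4, fell by 1.32 (SE 0.39, adjusted p = 0.0126), whereas *Fat1*, *Fat4*, *Vangl2* and the other 3 planar polarity genes tested were not called in either phase. No call was made among the 3 sheddase and secretase genes and the 2 nectin and afadin genes tested in this fit.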

How the data were processed

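SORT-seq libraries of single NSPCs on 2 plates were analysed. The authors aligned and counted with Salmon/alevin on GRCm38 and deposited estimated counts (expected counts) of UMIs per gene and cell, without normalization, of which 87.1% were whole numbers. Versions are not given in the sources used here. The authors kept cells with under 20% mitochondrial counts and removed doublets, and deposited a per-cell table with the mitochondrial percent, plate, category, phase and cluster. The percent column lists 11 cells at or above 20%. Columns were joined to cells by equal total and number of genes, and all were joined. Reads that fit several genes are divided among them by the estimation, which affects the *Pcdhg* rows.

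Counts were summed per plate and category (4 sums) or also per phase (12 sums), rounded, and tested in edgeR 4.0.16 (R 4.3.3) with TMM factors, filterByExpr and the quasi-likelihood test, the plate as a block, Benjamini-Hochberg adjustment over all genes tested and calls at 0.1. With 4 sums, 1 residual degree of freedom remained and the common dispersion was 0.00328. Each SE was computed as the absolute log2 fold change over the square root of the test's F statistic. Low and high sums of 1 number come from 1 plate, which pairs them, and their deviations from the category means correlated at 0.300 over 8348 genes. The members and lists were chosen with earlier results of these data known. Named are members called in a comparison, the 3 with the highest mean level of each subfamily, *Pcdhgc3*, and called genes of the lists, and others were named after their values were seen. Alternatives were no block, DESeq2 1.42.0, other size factors, no filter, whole UMIs, thinning to 5000 UMIs per cell (45 cells left out), cells under 10% mitochondrial counts, cells by phase, and each sum or plate left out. Intervals are exact binomial at 95% and cover counting error only. The functions were tested on simulated data. Promoters are from RefSeq (14 of the 47 members had a row outside chromosome 18), and coordinates from GENCODE M21. Python 3.11.15, numpy 2.4.6, pandas 2.3.3, scipy 1.17.1 and matplotlib 3.10.9 were used.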

Additional observations from a re-analysis of the deposited data

Results flagged for a closer look

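The level of *Pcdhga11* in G2M had 1 sum far from the other 3. The high sum of plate 1 stood at 244.5 CPM and the others at 50.1 to 65.6 CPM, and its gap to the nearest sum was 0.920 of the whole range, above Dixon's 95% critical value for 4 values. In 27 groups of 4 sums searched this way, chance alone flags about 1 group in 20. Of the 4 cells in which *Pcdhga11* held more than 50% of the *Pcdhg* count, 3 were in the high sum of plate 1.

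The difference between high and low PLIN2-GFP NSPCs in *Pcdhgb4* was called as dependent on the phase (adjusted p = 0.0439 in edgeR), with high above low in S and below low in G2M on both plates. The adjusted p was 0.495 in edgeR without the block, and 0 members were called in thinned cells. *Pcdhgb4* was the leading gene of 2 cells only.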

How the results depend on the processing

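Fewer members were called in high against low PLIN2-GFP NSPCs under most settings. There were 0 calls without the plate block, with DESeq2, in thinned cells, in cells under 10% mitochondrial counts and with the *Pcdhg* rows summed, 1 in G1 cells, 2 in cells in S or G2M, 3 without the cell with 76.7 *Pcdhgc3* counts, a choice made after seeing the data, and 0 to 2 with 1 sum left out. *Pcdhgc3* had log2 fold changes of 0.68 without the block, 0.79 with DESeq2, 0.43 thinned and 2.63 under 10% mitochondrial counts, none of them called, -0.0163 in G1 cells, 1.63 in S or G2M cells (called), and 0.21 to 1.37 with 1 sum left out. The summed *Pcdhg* row turned to 0.29 in whole UMIs, 0.25 under 10% mitochondrial counts and 0.0101 in S or G2M cells. In S, 0 members were called without the block or thinned and 2 to 4 with 1 plate left out. In G2M, 3 were called thinned and 3 or 4 with 1 plate left out. The summed row in S was -0.22 without the block, -0.16 by library size, -0.12 thinned and -0.24 to -0.21 with 1 plate left out, and its fall in G2M was called in 6 of 6 alternatives. The test by phase called 0 members without the block or thinned, and with 1 plate left out it has no residual degrees of freedom and was not run.

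Signs turned in *Pcdhga12* (0.86 under 10% mitochondrial counts), *Cdh13* (-0.0888 in G1), *Cdh4* (-0.53 under 10% mitochondrial counts, -0.15 in G1, -0.20 to 0.21 with 1 sum left out), *Cdh2* (-0.19 under 10% mitochondrial counts, -0.0304 to 0.25 with 1 sum left out) and *Pcdh19* (-0.25 to 0.12 with 1 sum left out). *Pcdhga11* went to -0.25 in S and -0.11 in G2M with 1 plate left out, against 1.35 and 1.24 with the other left out. *Pcdh10* changed sign about 0, to 0.00223 without the block, 0.0571 by library size, 0.00615 unfiltered, 0.0717 in whole UMIs, 0.0216 thinned, 0.64 in G1, 0.00984 without the cell and -0.22 to 0.18 with 1 sum left out. The cause was not tested. *Cdh13*, *Cdh4*, *Cdh2*, *Celsr1*, *Celsr2*, *Pcdh9*, *Pcdh10* and *Pcdh19* were called between high and low in 0 of 11 to 15 alternatives each. Depth limits the low members, with *Celsr1* at 37 counts in all.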
